A study of Homo sapiens with 6 samples.

Results

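This is an account of 115 repeat entries that carry MER numbers of retroviral origin, out of 15641 entries in a table of chromatin-bound RNA from the H9 line, established human embryonic stem cells. The members were chosen by name alone: every entry of the numbers MER4, MER21, MER31, MER34, MER39, MER49, MER51, MER52, MER54, MER57, MER65 to MER68, MER70, MER72 to MER74, MER76, MER77, MER83, MER84, MER87 to MER90, MER92, MER93, MER95, MER101 and MER110. MER9, MER11, MER41, MER48, MER50 and MER61 were left out. Of the 31 numbers in the rule 30 had entries, and MER93 matched 0. The naive group is 3 libraries of H9 cells with the treatment label naive, kept in RSeT medium, and the primed group is 3 libraries with the label primed. The labels give the RSeT growth protocol for all 6 libraries, so the primed state rests on the treatment label, and all 6 share the cell line and the chromatin fraction.

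MER stands for medium reiterated repeat, a name given before many of these elements were recognised as retroviral. An endogenous retrovirus is an ancient retroviral insertion, with an internal region that once coded for viral proteins between a pair of long terminal repeats (LTRs), which hold the promoter. Recombination between the LTRs often leaves a solitary LTR behind, so most copies in the genome are LTRs without an internal region. The MER numbers here belong to ERV1, the group related to gammaretroviruses, or to ERVL, an older group, as repeat annotation classes them. Some of their LTRs act as human gene promoters: a MER39 LTR drives decidual prolactin and a MER21A LTR drives placental aromatase. A MER34 copy encodes HEMO, an envelope protein made in placenta and stem cells. Such gene-level events cannot be read here, since each entry sums all genomic copies of a repeat and has no single coordinate.

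Naive libraries 1 to 3 held 9748202, 17791046 and 16700953 counts in all, and primed libraries 1 to 3 held 7192242, 118793 and 8106871. The MER entries held 145224, 190600 and 239766 of these counts in the naive libraries and 110006, 2410 and 148355 in the primed ones. Their median was 800, 1005 and 1251 counts per entry in the naive libraries and 556, 13 and 792 in the primed ones. In primed library 2, 48 of the 115 entries had under 10 counts and 5 had 0 (MER65B, MER34C, MER57E2, MER92C and MER83A-int). There 3 counts correspond to 25.3 CPM when counts are scaled to the library total. With TMM scaling, described below and used for all later CPM levels, 3 counts in that library are 16.8 CPM. Alpha satellite, the centromeric tandem repeat, took between 25.3% and 42.9% of naive and between 0.221% and 0.625% of primed counts. The large and small ribosomal RNA entries took between 0.162% and 6.07% of naive and between 4.03% and 17.7% of primed counts. The part of this composition in the results was not tested beyond the scaling alternatives given. The table holds no genes, so cell state was checked on retroviral entries only. HERVH-int (log2 change 1.14) and LTR7 (0.87), known for transcription in human pluripotent cells in general, passed as higher in naive cells. Of the entries known for the naive state, LTR5_Hs (1.59) and HERVK-int (3.62) passed as higher. LTR7Y (0.56), also known for the naive state, did not pass, and its groups overlapped. The labels do not state whether replicates were separate cultures, and p-values therefore speak only to the spread among these libraries, which may be technical. Fewer cells in a state and less RNA per cell cannot be told apart in these bulk samples.

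The comparison asks whether RNA of these families on chromatin differs with the pluripotent state. With TMM scaling, which lines up the bulk of entries between libraries, 11 of the 115 entries rose in naive cells, 1 fell and 103 did not pass (quasi-likelihood F-test of edgeR with Benjamini-Hochberg adjustment over all 3219 entries tested, threshold 0.05). That is 9.57% higher, beside 10.4% of all 1265 named repeats and 4.94% of all entries tested. Called lower were 1.19% of named repeats and 7.77% of all entries. The members' share of higher calls was thus near that of named repeats in general. All 115 members passed the filter on low counts. Their median log2 change was 0.24, beside 0.21 over all named repeats and -0.0046 over all entries, and 98 of 115 were above 0. That is 85.2% above 0, beside 77.1% of named repeats and 49.7% of all entries. With library size as the only scaling, the median of all entries moved to -0.61 and that of the members to -0.39, with 13 of 115 above 0. The members' median stood above that of all entries in both scalings, by 0.24 and 0.22. With simple repeats left out of the table the gap was 0.029, and 61 of 115 members were above 0.

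**Figure D1:**
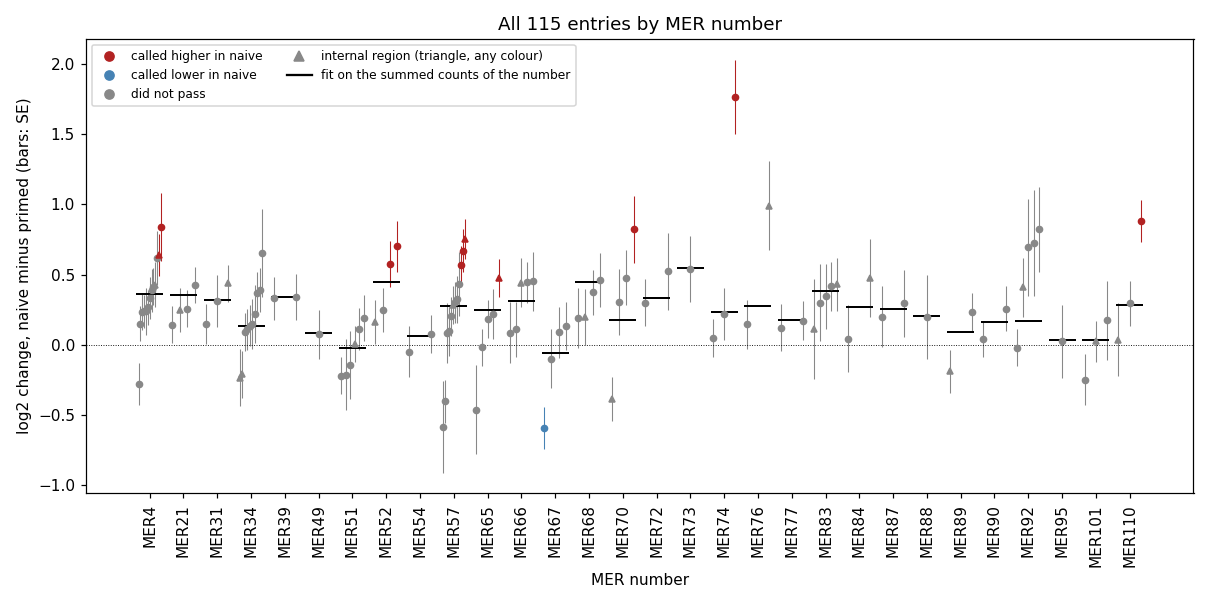
Each point is 1 of the 115 MER entries, placed by MER number (x axis) and log2 change of naive minus primed with TMM scaling (y axis, bars are the SE). Triangles are internal regions, red and blue mark the 11 entries called higher and the 1 called lower, and black lines give the fit on the summed counts of a number. Most entries lie between 0 and 0.5, MER74C stands at 1.76 and MER67B at -0.59. With library size alone only 13 of the 115 entries are above 0.

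The 3 values of one group did not overlap those of the other for 35 entries, counted from TMM-normalised CPM: naive lay above primed for 33 and below for 2. This is 28.7% above, beside 36.0% of named repeats and 19.4% of all entries, and 3.24% of named repeats lay below. Changes were small as a rule, and only MER74C differed by 2-fold or more (log2 of 1). The SE of the log2 change ran from 0.12 to 0.38, with a median of 0.27 for the 26 entries under 30 CPM and 0.15 for the 10 entries with at least 300 CPM. The median log2 change of these bins was 0.25 and 0.30.

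By class and with TMM scaling, 9 of 92 ERV1 entries rose and 1 fell (median log2 change 0.24). Of 23 ERVL entries 2 rose and 0 fell (median 0.22). Of the 2 ERVL entries below 0, 1 had an unadjusted p under 0.05 by edgeR and 0 by DESeq2. By position in the element, 3 of 22 internal regions rose and 0 fell (median 0.27), where 1 had an unadjusted p under 0.05 in the lower direction by edgeR and 0 by DESeq2. Of 93 LTR entries 8 rose and 1 fell (median 0.23). The shares called higher were 9.78% for ERV1, 8.70% for ERVL, 13.6% for internal regions and 8.60% for LTRs. Beside these, 10.4% of named repeats and 4.94% of all entries were called higher, and 1.19% and 7.77% lower. Whether these classes differ was not tested. The left-out numbers MER9, MER11, MER41, MER48, MER50 and MER61 had 9 of 27 entries higher and 1 lower, with a median of 0.31. MER61 alone gave 4 of 7, and MER50-int, at 1.43, was the highest of those 27.

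MER74C, an LTR of the ERVL class, had the largest change among the members. It stood at 25.2, 43.1 and 37.1 CPM in naive libraries 1 to 3, against 8.73, 11.2 and 11.8 CPM in primed libraries 1 to 3. Every naive library lay above every primed one, and naive library 1 was the lowest of its group. The raw counts were 222, 481 and 529 in naive and 69, 2 and 119 in primed libraries, so primed library 2 adds almost no information. The entry was 3.39-fold higher in naive cells (log2 1.76 ± 0.27, SE; edgeR adjusted p = 0.00751). It was the highest member in all 15 alternatives and was called in 14 of them, library size alone included (log2 1.13, edgeR adjusted p = 0.00801). Without primed library 1 it gave 1.57 and missed the threshold (edgeR adjusted p = 0.0603). Its sister LTRs did not pass: MER74A gave 0.22 and MER74B 0.05 (edgeR adjusted p = 0.448 and 0.828).

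A ratio of counts inside 1 library needs no scaling factor. For MER74C against MER74A and MER74B summed, the log2 ratio was -3.50, -2.81 and -3.18 in naive libraries 1 to 3, against -4.94, -4.52 and -4.53 in primed libraries 1 to 3. The groups did not overlap, and the means differed by 1.5 (naive -3.16 ± 0.34 and primed -4.66 ± 0.24, SD, n = 3 each). The same ratio of an entry to the rest of its number was computed for 111 entries. Naive lay above primed without overlap for 16 of these, which is 14.4%, and below for 13, which is 11.7%. Of the 11 entries called higher, 6 were among the 16 (MER74C, MER110A, MER57-int, MER65-int, MER52A and MER52C), and the other 5 overlapped. These entries had been chosen by their calls in the same libraries, so the ratios are a description and carry no test.

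MER110A, an ERV1 LTR, was the next clearest. It had 107, 109 and 88.9 CPM in naive libraries 1 to 3, against 53.3, 61.5 and 55.7 CPM in primed libraries 1 to 3. The lowest naive library was above the highest primed one. The entry rose 1.84-fold (log2 0.88 ± 0.15, SE; edgeR adjusted p = 0.00959) and was called in 13 of 15 alternatives. It missed the threshold with library size alone (log2 0.25, edgeR adjusted p = 0.480) and without primed library 1 (0.83, 0.0804). The other entries of this number did not pass: MER110 gave 0.30 (edgeR adjusted p = 0.227) and the internal region MER110-int 0.04 (0.941). MER110-int was at 268 CPM in primed library 2, from 48 counts, against 105 and 125 CPM in primed libraries 1 and 3. Relative to those 2 entries, MER110A had a log2 ratio of -1.26 ± 0.03 in the naive group and -2.03 ± 0.33 in the primed group (SD, n = 3 each).

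**Figure D2:**
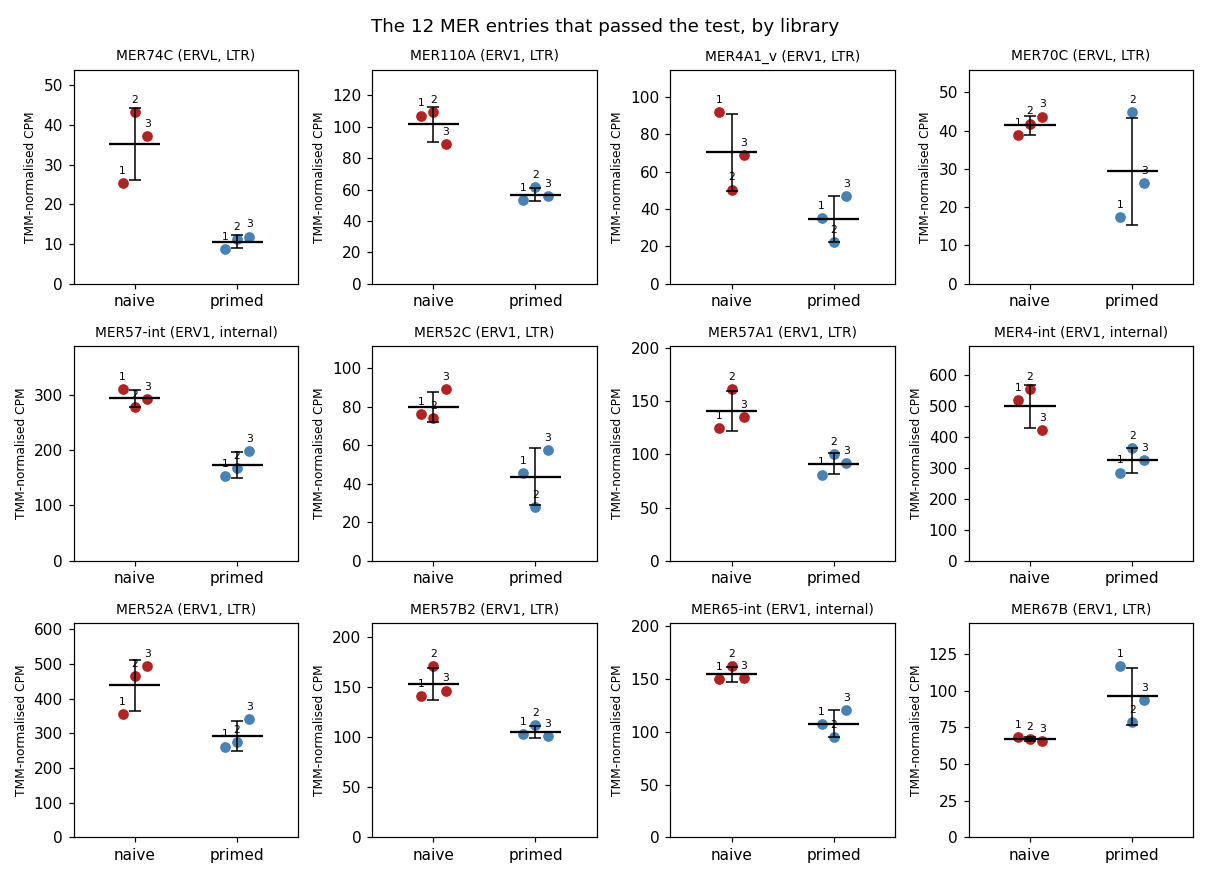
TMM-normalised CPM (y axis, from 0) of the 12 entries that passed the test, with naive libraries in red and primed libraries in blue. Points are single libraries marked by number, horizontal lines the mean and bars the SD of 3 libraries. MER74C has the widest separation, and MER70C overlaps through primed library 2 (44.8 CPM). With library size alone MER4-int, MER52A, MER57B2 and MER65-int turn to values below 0.

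MER57 is an ERV1 number with 12 entries, which lay on both sides of 0. The internal region MER57-int had 310, 279 and 292 CPM in naive libraries 1 to 3, against 153, 168 and 198 CPM in primed libraries 1 to 3. The groups were well apart, and the rise was 1.69-fold (log2 0.75 ± 0.14, SE; edgeR adjusted p = 0.0133). The LTR MER57A1 stood at 125, 161 and 136 CPM in the naive group and 81.1, 100.7 and 91.5 CPM in the primed group, a rise of 0.67 ± 0.15 on the log2 scale (edgeR adjusted p = 0.0220). MER57B2 was at 153 ± 15.8 and 105 ± 5.81 CPM (SD, n = 3 each) in naive and primed libraries and rose by 0.56 ± 0.14 (log2, SE; edgeR adjusted p = 0.0266). The second internal entry, MER57A-int, was at 0.28 without passing (edgeR adjusted p = 0.173).

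Of the MER57E LTRs, MER57E3 and MER57E2 were below 0 and MER57E1 was above. MER57E3 had 254, 274 and 217 CPM in naive libraries 1 to 3, against 357, 257 and 347 CPM in primed libraries 1 to 3. The groups overlapped through primed library 2, and the log2 change of -0.40 ± 0.15 (SE) did not pass (edgeR adjusted p = 0.101). It was called lower in 5 of 15 alternatives: without primed library 2 (-0.49, edgeR adjusted p = 0.0404), with upper-quartile factors (-0.51, 0.0319), with library size alone (-1.05, 0.000815), with simple repeats left out (-0.64, 0.0370) and with a replicate block (-0.40, 0.0493). MER57E2, with 54 to 102 counts in naive libraries and 86, 0 and 113 in primed libraries, gave -0.58 (edgeR adjusted p = 0.241; -1.16 and 0.0169 with library size alone), while MER57E1 gave 0.33 (0.208). With library size alone 32.6% of all entries were called lower, and the median log2 change over all entries was -0.61. With TMM scaling MER57B1, MER57C1, MER57C2, MER57D and MER57F were above 0, between 0.09 and 0.43, and did not pass. Without primed library 1 the MER57-int, MER57A1 and MER57B2 calls were lost (edgeR adjusted p = 0.0969, 0.186 and 0.184). MER57A1 was also lost without naive library 2 (0.0684), and MER57B2 without naive library 2 (0.101) or primed library 3 (0.0753). With library size alone all 3 calls were lost, at 0.11 for MER57-int, 0.0012 for MER57A1 and -0.095 for MER57B2 (log2; edgeR adjusted p = 0.760, 0.999 and 0.791). With simple repeats left out MER57A1 (0.46, edgeR adjusted p = 0.0723) and MER57B2 (0.35, 0.103) were lost, and MER57B2 also with no filter (0.0532) and with DESeq2 (0.0521). MER57-int was called in 13 of 15 alternatives, MER57A1 in 11 and MER57B2 in 8.

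MER4, an ERV1 number and the largest here with 13 entries, had 12 above 0 with TMM scaling and 2 with library size alone. Its internal region MER4-int had 520, 555 and 423 CPM in naive libraries 1 to 3, against 285, 364 and 325 CPM in primed libraries 1 to 3. The groups did not overlap, and the entry rose 1.56-fold (log2 0.64 ± 0.15, SE; edgeR adjusted p = 0.0236), though with library size alone it gave -0.060. The LTR variant MER4A1_v had 91.6, 50.4 and 69.0 CPM in naive libraries 1 to 3, against 34.9, 22.4 and 46.9 CPM in primed libraries 1 to 3. Naive library 2 was close to primed library 3, and the rise was 0.84 ± 0.24 (log2, SE; edgeR adjusted p = 0.0454). The parent LTR MER4A1 gave 0.41 with groups that did not overlap and missed the threshold (edgeR adjusted p = 0.0589), as did MER4E1 at 0.62 (0.0572) and the internal MER4B-int at 0.43 (0.0964). MER4D1, at 479 ± 19.2 CPM in the naive group and 405 ± 18.3 CPM in the primed group (SD, n = 3 each), gave 0.24 (edgeR adjusted p = 0.199). MER4E was the only entry of the number below 0, at -0.28 (edgeR adjusted p = 0.217). The MER4-int call was lost without naive library 2 (edgeR adjusted p = 0.0670), primed library 1 (0.177) or primed library 3 (0.0529), when simple repeats were left out (log2 0.43, edgeR adjusted p = 0.0996) and under upper-quartile scaling (0.0557), and it held in 9 of 15 alternatives. That of MER4A1_v was lost without naive library 1 (0.0604), naive library 3 (0.0518), primed library 1 (0.301) or primed library 2 (0.0626). It was also lost with library size alone (log2 0.30, edgeR adjusted p = 0.408), simple repeats left out (0.165), RLE factors (0.0552), upper-quartile factors (0.0568), alpha satellite and ribosomal RNA left out (0.0526) and DESeq2 (0.0532), so it held in 5 of 15 alternatives.

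MER52, also ERV1, had 2 LTRs that rose. MER52A had 356, 466 and 494 CPM in naive libraries 1 to 3, against 262, 274 and 340 CPM in primed libraries 1 to 3. The gap between the lowest naive and the highest primed library was small, and the rise was 1.49-fold (log2 0.57 ± 0.16, SE; edgeR adjusted p = 0.0423), against -0.10 with library size alone. MER52C had 76.3, 74.2 and 89.1 CPM in naive libraries 1 to 3, against 45.7, 28.0 and 57.3 CPM in primed libraries 1 to 3, and rose 1.63-fold (log2 0.70 ± 0.18, SE; edgeR adjusted p = 0.0302). MER52D gave 0.25 (edgeR adjusted p = 0.293) and the internal MER52-int 0.16 (0.507), and neither passed. MER52A missed the threshold without naive library 2 (edgeR adjusted p = 0.0934), naive library 3 (0.0795), primed library 1 (0.272) or primed library 2 (0.0632), when simple repeats were left out (log2 0.35, edgeR adjusted p = 0.145), under upper-quartile scaling (0.0823) and with DESeq2 (0.0532). It was called in 7 of 15 alternatives. MER52C missed it without naive library 3 (0.0701) or primed library 1 (0.227), with library size alone (log2 0.13, edgeR adjusted p = 0.735), with simple repeats left out (0.0989) and with DESeq2 (0.0596). It was called in 10 of 15.

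In MER65 (ERV1) the internal region rose and no LTR passed. MER65-int had 150, 162 and 151 CPM in naive libraries 1 to 3, against 108, 95.1 and 121 CPM in primed libraries 1 to 3. The naive values lay close together and above all primed ones, with a rise of 1.39-fold (log2 0.47 ± 0.13, SE; edgeR adjusted p = 0.0412), against -0.16 with library size alone. Its LTRs MER65A, MER65C and MER65D gave -0.02, 0.19 and 0.22, and MER65B gave -0.46 with 88 to 155 counts in naive and 123, 0 and 157 in primed libraries (edgeR adjusted p = 0.340). The MER65-int call was among the weakest: it was lost without naive library 2 (edgeR adjusted p = 0.132), naive library 3 (0.0683), primed library 1 (0.263) or primed library 3 (0.0506). It was also lost with upper-quartile factors (0.0809), no filter (0.124), simple repeats left out (log2 0.25, edgeR adjusted p = 0.143), alpha satellite and ribosomal RNA left out (0.0533) and DESeq2 (0.127), and held in 5 of 15 alternatives.

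MER70, an ERVL number, was mixed. Its LTR MER70C had 38.8, 41.9 and 43.7 CPM in naive libraries 1 to 3, against 17.3, 44.8 and 26.3 CPM in primed libraries 1 to 3. Primed library 2, with 8 counts, was above every naive library, so the groups overlapped although the fit gave a rise of 0.82 ± 0.24 (log2, SE; edgeR adjusted p = 0.0463). The call was lost without naive library 2 (edgeR adjusted p = 0.0887), naive library 3 (0.0832), primed library 1 (0.326) or primed library 3 (0.0624). It was also lost with library size alone (log2 0.16, edgeR adjusted p = 0.703), simple repeats left out (0.101), RLE factors (0.0542), upper-quartile factors (0.0711), alpha satellite and ribosomal RNA left out (0.0535) and DESeq2 (0.110), and held in 5 of 15 alternatives. MER70A and MER70B gave 0.30 and 0.48 and did not pass. The internal MER70-int was on the other side, at 44.7 ± 3.10 CPM in the naive group and 55.0 ± 9.59 CPM in the primed group (SD, n = 3 each), with -0.39 ± 0.16 (log2, SE; edgeR adjusted p = 0.122). It was called lower with simple repeats left out (-0.61, edgeR adjusted p = 0.0349) and with library size alone (-0.99, 0.00323). The fit with library size alone called 32.6% of all entries lower, with a median log2 change of -0.61 over all entries.

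MER67B, an ERV1 LTR, was the 1 member that fell. It had 68.4, 66.7 and 65.6 CPM in naive libraries 1 to 3, against 117, 78.3 and 93.3 CPM in primed libraries 1 to 3. The naive values were nearly equal and all under the lowest primed value, which came from 14 counts in primed library 2. The log2 change was -0.59 ± 0.15 (SE; edgeR adjusted p = 0.0301), and with library size alone it was -1.19 (edgeR adjusted p = 0.000131). Relative to MER67A, MER67C and MER67D summed, the log2 ratio was -1.91 ± 0.24 in the naive group and -1.29 ± 0.18 in the primed group (SD, n = 3 each), and the groups did not overlap. Those 3 LTRs gave 0.09, 0.13 and -0.10 and did not pass. The MER67B call was lost without naive library 2 (edgeR adjusted p = 0.107), naive library 3 (0.0844) or primed library 1 (0.241). It held in the other 12 of 15 alternatives, among them library size alone, which called 32.6% of all entries lower.

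The remaining 22 numbers, with 67 entries, had 0 calls by edgeR and 0 by DESeq2, and 14 of these entries had an unadjusted p under 0.05 by edgeR. The same held for 1017 of all 3219 entries tested and for 398 of the 1265 named repeats. The log2 changes of the 67 entries ran from -0.25 to 0.99, with 58 above 0 and 9 below. MER21C, an ERVL LTR, was closest to the threshold. It had 1773, 1581 and 1811 CPM in naive libraries 1 to 3, against 1269, 1136 and 1426 CPM in primed libraries 1 to 3. The groups did not overlap, and the log2 change was 0.43 ± 0.13 (SE; edgeR adjusted p = 0.0509), against -0.24 with library size alone. It passed without primed library 3 (0.49, edgeR adjusted p = 0.0452), with no filter (0.0493) and with a replicate block (0.0141). The related MER21B, MER21A and MER21-int gave 0.26, 0.14 and 0.25, short of the threshold (edgeR adjusted p = 0.201, 0.497 and 0.297). MER31-int, an ERV1 internal region, had 209, 194 and 196 CPM in the naive group and 139, 173 and 144 CPM in the primed group, with 0.44 ± 0.13 (log2, SE; edgeR adjusted p = 0.0518). It passed without primed library 2 (0.51, edgeR adjusted p = 0.0277) and with a replicate block (0.0304).

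MER76-int, the internal region of an ERVL number, gave the second largest change of all members without passing. It had 18.8, 44.7 and 30.7 CPM in naive libraries 1 to 3, against 13.8, 22.4 and 17.0 CPM in primed libraries 1 to 3. Naive library 1 was under primed library 2, which had 4 counts, and the log2 change was 0.99 ± 0.32 (SE; edgeR adjusted p = 0.0592). It passed without naive library 1 (1.28, edgeR adjusted p = 0.00438), with no filter (0.97, 0.00447) and with a replicate block (0.69, 0.0175). MER92D, an ERV1 LTR with 11.8, 23.5 and 16.8 CPM in the naive group and 8.98, 11.2 and 10.6 CPM in the primed group, gave 0.82 (edgeR adjusted p = 0.0938), and it passed without naive library 1 (1.06, edgeR adjusted p = 0.0245). Its internal region MER92-int gave 0.41 (0.201).

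Several internal regions gave values near 0. MER101-int, of ERV1, had 1212, 1045 and 973 CPM in naive libraries 1 to 3, against 1063, 1225 and 906 CPM in primed libraries 1 to 3. The groups overlapped fully, and the log2 change was 0.02 ± 0.14 (SE; edgeR adjusted p = 0.927). MER51-int gave 0.0067 ± 0.13 (edgeR adjusted p = 0.982). The LTR MER49, at 360 ± 64.3 CPM in the naive group and 334 ± 65.1 CPM in the primed group (SD, n = 3 each), gave 0.07 (edgeR adjusted p = 0.795). For these 3 entries the sign turned between alternatives.

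The MER34 internal regions, of the number that HEMO comes from, were below 0. MER34-int had 42.2, 60.2 and 39.7 CPM in naive libraries 1 to 3, against 62.5, 39.2 and 53.3 CPM in primed libraries 1 to 3. The ranges overlapped, and the change was -0.23 ± 0.20 (log2, SE; edgeR adjusted p = 0.464). MER34B-int gave -0.21 ± 0.17 (edgeR adjusted p = 0.418). The 8 MER34 LTR entries were all above 0 with TMM scaling (1 of 8 with library size alone, 4 of 8 with simple repeats left out), the highest being MER34C at 0.65 (edgeR adjusted p = 0.177), which had 0 counts in primed library 2. The ratio of internal to LTR counts within libraries overlapped between the groups, with -2.26 ± 0.23 in the naive group and -1.96 ± 0.40 in the primed group (SD, n = 3 each; exact permutation p = 0.4). Of its 10 entries 0 passed the edgeR test, and the sources used here do not give how reads shared between its entries were counted. MER89-int was likewise at -0.19 (edgeR adjusted p = 0.438), while the LTR MER89 gave 0.23 (0.280).

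The LTRs known as gene promoters did not pass. MER39, the number of the decidual prolactin promoter, was at 392 ± 42.0 CPM in the naive group and 317 ± 63.8 CPM in the primed group (SD, n = 3 each), with a log2 change of 0.34 (edgeR adjusted p = 0.179) and -0.38 with library size alone. MER21A, the number of the placental aromatase promoter, was at 395 ± 28.8 and 353 ± 41.2 CPM in naive and primed libraries. The ERVL LTR MER68 was at 448 ± 26.7 and 313 ± 98.5 CPM, where primed library 2 was the low one at 201 CPM, and gave 0.46 (edgeR adjusted p = 0.122) and -0.16 with library size alone. The remaining internal regions MER66-int, MER68-int, MER83A-int, MER83B-int and MER84-int gave 0.44, 0.20, 0.11, 0.43 and 0.47, with edgeR adjusted p between 0.108 and 0.858.

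Reads that fit several subfamilies of 1 number can move between its entries, so the counts of each number were also summed and fitted in place of its entries. Of the 30 sums 28 were above 0 with TMM scaling, 0 with library size alone and 17 with simple repeats left out. With TMM scaling 0 passed by edgeR (9 had an unadjusted p under 0.05, beside 1017 of 3219 entries before summing) and 0 by DESeq2 (4 had an unadjusted p under 0.05). In the edgeR fit with sums 4.85% of 3134 entries were called higher and 7.79% lower. The lowest adjusted p belonged to MER4, at 2783 ± 120 CPM in the naive group and 2167 ± 45.2 CPM in the primed group (SD, n = 3 each; log2 0.36 ± 0.11, SE; edgeR adjusted p = 0.0542). MER52 followed with 861 ± 107 and 630 ± 76.3 CPM in naive and primed libraries (log2 0.45 ± 0.14, SE; edgeR adjusted p = 0.0598). MER74 as a whole gave 0.23 (edgeR adjusted p = 0.253) although its entry MER74C stood at 1.76, since MER74A and MER74B hold most of its counts. MER57 gave 0.27 (edgeR adjusted p = 0.130) with entries between -0.58 and 0.75, and MER67 gave -0.05 (0.827). Without naive library 1, MER52 (0.58, edgeR adjusted p = 0.0240) and MER73 (0.75, 0.0354) passed. Without primed library 2, MER4 (0.37, 0.0498) and MER110 (0.49, 0.0478) passed.

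The internal region and the LTRs of a number can be set against each other inside a library, again with no scaling factor. This was done for the 18 numbers with at least 10 counts on each side in every library except primed library 2. Exact permutation of 3 against 3 libraries, two-sided, allows no p under 0.1, so none could reach 0.05, and adjusted over the 18 numbers the lowest was 0.45. The ratio was higher in naive libraries without overlap for 3 numbers (16.7%) and lower for 1 (5.56%). In MER65 the log2 ratio of internal to LTR counts was -0.82, -0.66 and -0.73 in naive libraries 1 to 3, against -1.22, -1.10 and -1.05 in primed libraries 1 to 3. All naive values lay above all primed ones, and the means differed by 0.39 (exact permutation p = 0.1, the smallest possible).

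In MER57 the same ratio averaged -0.53 ± 0.11 in the naive group and -0.89 ± 0.16 in the primed group (SD, n = 3 each; exact permutation p = 0.1). In MER4 it averaged -1.64 ± 0.20 in the naive group and -1.94 ± 0.06 in the primed group (SD, n = 3 each; exact permutation p = 0.1). MER89 went the other way, with -1.04 ± 0.13 in the naive group and -0.55 ± 0.26 in the primed group (SD, n = 3 each; exact permutation p = 0.1). The other 14 numbers overlapped, and over all 18 the difference was above 0 for 9. In MER110 primed library 2 stood apart, at 1.04 against -0.32 and -0.15 in primed libraries 1 and 3. With it the difference was -0.62, and without it -0.19. In MER92 that library took the difference to 0.62, against 0.19 without it. In MER83 and MER101 the sign turned, from -0.22 and -0.058 with it to 0.24 and 0.36 without it.

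**Figure D3:**
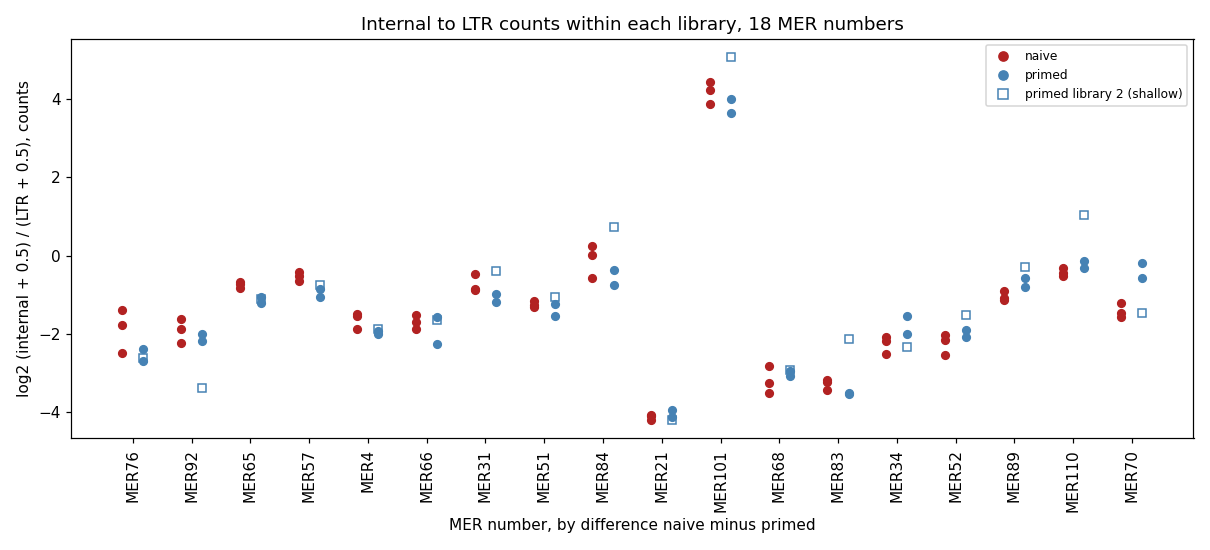
The log2 ratio of internal to LTR counts within each library (y axis, 0.5 added to both counts) for 18 MER numbers, ordered by the difference of naive minus primed (x axis). Filled points are naive (red) and primed (blue) libraries, and the open square is the shallow primed library 2. MER65, MER57 and MER4 have all naive points above all primed points, and MER89 has them below. The open square stands far from the other primed points in several numbers, among them MER92, MER83, MER110, MER84 and MER101. The ratio uses no scaling factor, so these directions do not depend on one.

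As a share of all counts, the 115 entries took 1.33% ± 0.228 in the naive group and 1.80% ± 0.251 in the primed group (SD, n = 3 each). The naive values, 1.49%, 1.07% and 1.44%, were all below the primed ones, 1.53%, 2.03% and 1.83%. The 95% Wilson interval was 1.95% to 2.11% for primed library 2 and at most 0.0185 points wide for any other library (counting error only, since PCR copies of a molecule cannot be told apart here). With alpha satellite and ribosomal RNA left out of the total, the shares were 2.17%, 2.08% and 2.20% in naive and 1.86%, 2.13% and 1.996% in primed libraries. The groups then overlapped and the means were 2.15% ± 0.0617 and 1.996% ± 0.132. The sign of the difference in means thus turned with the denominator, with groups that overlapped in the second case. Alpha satellite and ribosomal RNA were left out together, so the part of each was not tested.

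The calls depended on primed library 1 and on the scaling. Without primed library 1, 0 of the 115 entries were called by edgeR, and 23 had an unadjusted p under 0.05, against 34 with all 6 libraries. Over all entries only 0.432% of 3472 were then called, against 12.7% with all 6 libraries. The signs changed less: 95 of 115 members were above 0 without primed library 1, and 98 with it. Without any other single library between 5 and 17 members were called higher, in fits that called 5.02% to 18.6% of all entries in either direction (the lower ends without naive library 2, the upper ends without naive library 1). With library size alone only MER74C was called higher and 16 members lower, in a fit that called 0.870% of all entries higher and 32.6% lower. Among those 16 were MER67B, MER57E2, MER57E3, MER65B, MER70-int, MER34-int, MER34B-int, MER89-int, MER101-int and MER110-int.

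**Figure D4:**
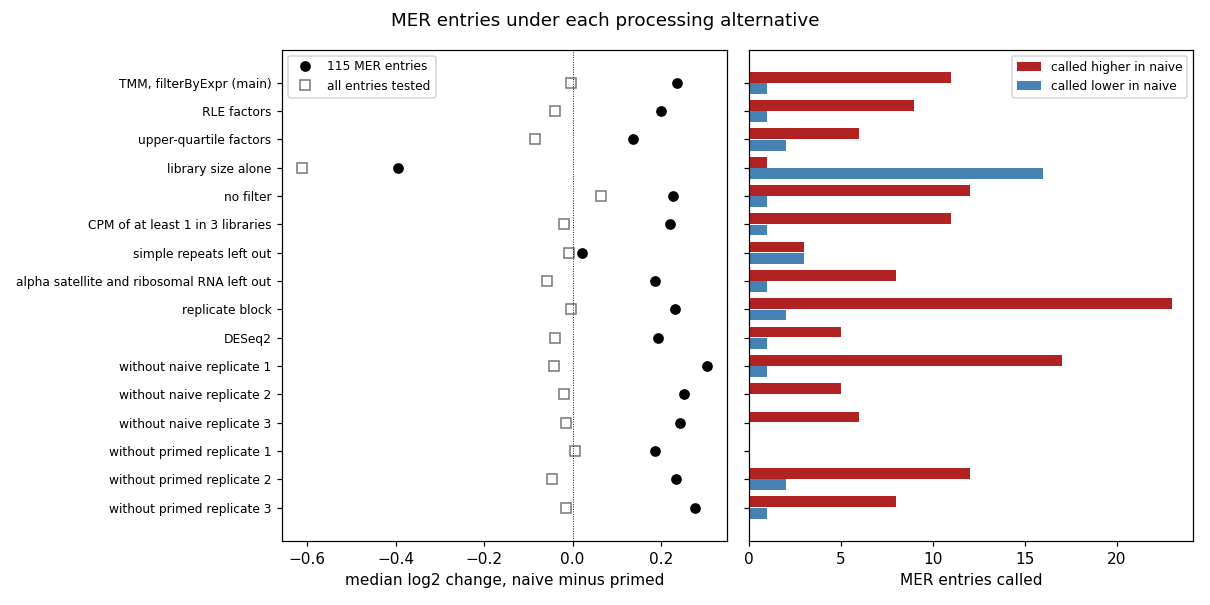
Median log2 change of naive minus primed (left, x axis) of the 115 MER entries (filled) and of all entries tested (open), and the number of MER entries called higher (red) or lower (blue) in naive cells (right, x axis), for each processing setting (y axis). The MER median lies above that of all entries in every setting, is below 0 with library size alone (-0.39), and is close to 0 with simple repeats left out (0.02). The number called higher runs from 0 without primed library 1 to 23 with a replicate block.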

How the data were processed

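Chromatin-fraction RNA of H9 cells was counted over repeat names. The authors deposited raw counts (integers for each repeat and library) with no normalisation as far as the values show. Per the submitters' processing notes the tools were Trimmomatic 0.39, STAR 2.7.8a, featureCounts and Subread 2.14.2. The sources used here do not give the build, the annotation of repeats, the strandedness used in counting or the handling of multi-mapping reads, so reads of near-identical families may be shared, and both strands may be mixed. Libraries were made with a directional kit, per the labels' protocols. Sequences of the repeats were not used here.

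Columns were matched to samples by title, and groups come from the treatment label. The test was the quasi-likelihood F-test of edgeR 4.0.16 (R 4.3.3) after filterByExpr and TMM scaling, with Benjamini-Hochberg adjustment over all 3219 entries tested. The SE is the size of the log2 change divided by the square root of F. CPM values are TMM-normalised and not corrected for length, so levels are not compared between entries. Members called at an adjusted p under 0.05, tested internal regions, the 10 members with the highest mean CPM and the 5 largest changes in each direction with a mean CPM of at least 5 are named. Sister entries outside this rule, such as MER34C, MER4A1, MER4E1, MER4E and MER74A, were named after their values were seen. ERV1 and ERVL labels are general repeat annotation. The members and lists were chosen with earlier results of these data known. The procedure was checked on simulated counts, where it called 46.9% of 2-fold and 95.8% of 4-fold changes. Of its 144 calls there, 4.86% were entries simulated without a change. The simulation changed 200 entries and held all others equal between the groups. It was not built with a composition shift like that of alpha satellite. These rates therefore do not cover the choice of scaling or the reliance on primed library 1. Since 114 of the 115 members changed by less than 2-fold, an entry that did not pass may still differ. Alternatives were other scaling factors, other filters, other sets of entries, a replicate block, DESeq2 1.42.0 on the same filter and each library left out. Ratios within libraries added 0.5 counts. Figures were drawn with matplotlib 3.10.9.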

Additional observations from a re-analysis of the deposited data

How the results depend on the processing

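With 3 libraries a group and a primed library 2 of 118793 counts, 1 of the 26 entries under 30 CPM was called, and 48 of the 115 entries rest on under 10 counts in primed library 2. Of the 15 alternatives, the number of members called higher (11) was 6 with upper-quartile factors, 1 with library size alone, 3 with simple repeats left out, 5 with DESeq2 and from 0 to 17 without 1 library. Over all entries tested, 159 were called higher in the main fit. In those settings it was 104, 28, 31 (of 1265 tested), 82 and from 8 to 238. The number of members called lower (1) was 2 with upper-quartile factors, 16 with library size alone, 3 with simple repeats left out and 0 to 2 without 1 library. Over all entries it was 250 in the main fit, and 343, 1051, 17 and 7 to 413 in the same order. Members called higher thus fell in number with all entries under upper-quartile factors, library size alone, simple repeats left out and DESeq2. Members called lower rose in number with all entries under upper-quartile factors and library size alone. With simple repeats left out they rose from 1 to 3, while all entries called lower fell from 250 to 17. The median log2 change of the members (0.24) was 0.14 with upper-quartile factors and -0.39 with library size alone. It was 0.021 with simple repeats left out and 0.19 to 0.30 without 1 library. Among the sums per number, 0 were called: with alpha satellite and ribosomal RNA left out 1 was higher (MER4), with library size alone 3 were lower (MER51, MER67 and MER101), and without 1 library 0 to 2 were higher. The share of the members, naive minus primed, was -0.464 points of all counts. With denominators chosen after seeing the data it was 0.152 points outside alpha satellite and ribosomal RNA, and 0.118 points when the total held named repeats only. The within-library internal to LTR ratio was higher in naive for 9 of 18 numbers, for 9 with 1 count added, and for 6 to 11 without 1 library.

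The labels tie nothing to the replicate numbers of the titles, so the main fit assumed no pairing, and whether they pair is not settled. Same-numbered deviations from the group means correlated at 0.146, 0.087 and 0.066. Those with different numbers correlated between -0.107 and -0.003. Each library correlated best with its own number. Deviations from a group mean sum to 0, so the negative values are not separate evidence, and pairing was not tested. With a replicate block 23 members were called higher (the 11 among them) and 2 lower, in a fit that called 19.8% of all entries (264 higher and 374 lower), against 12.7% without the block, and 5 sums were called higher (MER4, MER21, MER52, MER68 and MER83).

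The sign turned for these named entries, of which MER65-int, MER52A, MER57B2 and MER4-int had been called, and the cause was not tested. With library size alone, where the median over all entries was -0.61, log2 changes were -0.43 for MER4D1, -0.24 for MER21C, -0.16 for MER65-int, -0.55 for MER49, -0.16 for MER68, -0.20 for MER4B-int, -0.21 for MER66-int, -0.10 for MER52A, -0.41 for MER21B, -0.23 for MER31-int, -0.38 for MER39, -0.50 for MER21A, -0.14 for MER84-int, -0.095 for MER57B2, -0.37 for MER21-int, -0.40 for MER57A-int, -0.67 for MER101-int, -0.060 for MER4-int, -0.13 for MER92-int, -0.63 for MER51-int, -0.74 for MER110-int, -0.43 for MER68-int, -0.53 for MER52-int, -0.45 for MER83A-int and -0.19 for MER83B-int. With simple repeats left out they were -0.17 for MER49, -0.090 for MER21A, -0.20 for MER101-int, -0.21 for MER51-int, -0.11 for MER110-int, -0.039 for MER68-int, -0.042 for MER52-int and -0.11 for MER83A-int. For MER101-int, MER51-int and MER110-int they were -0.015, -0.030 and -5.0e-06 with RLE factors, -0.11, -0.092 and -0.085 with upper-quartile factors, -0.028, -0.043 and -0.014 with alpha satellite and ribosomal RNA left out, and -0.0072, -0.031 and -0.052 with DESeq2. MER49 gave -0.032 with upper-quartile factors, and MER51-int -0.0060 with a CPM of at least 1 in 3 libraries. Without 1 library MER49 ran from -0.031 to 0.22, MER101-int from -0.11 to 0.14, MER51-int from -0.045 to 0.063, MER110-int from -0.26 to 0.37 and MER83A-int from -0.026 to 0.31.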
